A study of Mus musculus with 17 samples.

Results

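The liver RNA of mice fed a fungal oil and a fish oil together was set against the liver RNAs of mice fed either oil alone, to describe the genes for which the combined diet lay outside both single oils. This RNA was hybridised to 2 of the 17 arrays of the series, 1 each of the Affymetrix Mu11K subA and subB types, named chip A and B below. Its features were chosen by brightness alone: of 13069 probe sets measured in liver (a probe set is a group of short probes for 1 transcript), 6537 had a mean over the 5 liver RNAs no lower than their chip's median intensity, and 4322 of these lay outside both single oils.

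The combined diet held 1.1% fungal oil, rich in arachidonate, and 1.9% fish oil, a source of marine polyunsaturated fatty acids. The single-oil diets held 1.1% fungal oil or 1.9% fish oil, and the control diet held neither. All diets shared a fat-free AIN93G base with milk fat, palm olein, Trisun sunflower oil, soybean oil and medium-chain triacylglycerol oil, part of which the test oils replaced. Male Rj:NMRI mice, an outbred stock, were caged 10 together, ate the diets to day 57 or 58, and were killed in the morning after 0 to 6 hours without food. By the labels each diet was given to 10 mice, from which 5 were selected. The labels give 1 liver RNA for each oil diet and 2 for the control diet and do not say how many of the 5 mice went into each, so every statement below concerns single RNAs, and cage and day of death cannot be told apart from diet. The difference between the 2 control RNAs is the only measure of spread and may be technical.

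Polyunsaturated fatty acids are known to lower the hepatic transcripts of fatty acid synthesis, largely by restraining the transcription factor SREBP-1c. They also bind and activate PPAR-alpha, a nuclear receptor that induces genes for burning fatty acids. Arachidonate is the precursor of many prostaglandins and leukotrienes, and the fatty acids of fish oil compete with it in membranes and for the same enzymes.

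The deposited intensities are whole numbers scaled to a trimmed mean near 150 on every array, and values below 15 were set to that floor before log2 was taken. The labels name hepatocytes as the source, while their protocol describes pieces of dissected liver. The hepatocyte gene Alb, which encodes albumin, read 12501 with both oils, 13138 with fungal oil, 13435 with fish oil and 12999 and 10590 in the controls. The differences between the control RNAs had a standard deviation of 0.50 (log2) for chip A and 0.80 for chip B. For both oils that deviation was 0.54 against fungal oil and 0.56 against fish oil for chip A, and 0.89 and 0.91 for chip B. The Gapdh 3-prime to 5-prime ratio, which rises as RNA breaks down, was 1.89 and 1.92 on the both-oils arrays, 2.48 and 2.51 with fungal oil, 1.95 and 3.26 with fish oil and 1.91 to 2.23 in the controls. The part of these ratios in the results was not tested.

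Over all 6537 probe sets, both oils lay above both single oils for 2494 (38.2%) and below both for 1828 (28%), with 2215 in between. That balance depends on scaling: with each array centred on its median 2003 lay above and 2366 below, and after quantile normalization 2220 and 2010. Most of these gaps were small: the median distance to the nearer single oil was 0.21 on the log2 scale. A gap was called clear where it exceeded the 95th percentile of the difference between the controls among probe sets of the same chip and brightness class (each chip was split into 4), and also exceeded the probe set's own control difference. Among the brightest probe sets that limit was 0.38 (1.3-fold) for chip A and 0.62 (1.54-fold) for chip B, and among the dimmest 1.69 and 2.46. Both oils were clear above both single oils for 48 probe sets (0.734%) and clear below both for 91 (1.39%), or for 31 and 115 with centred arrays. The same rule set the fungal-oil RNA clear above the other 2 oil RNAs for 46 (0.704%) and clear below for 109 (1.67%), and the fish-oil RNA for 66 (1.01%) and 115 (1.76%). In total 139 probe sets were clear for both oils, against 155 for fungal oil and 181 for fish oil. The order differed between the chips, with 71, 99 and 101 on chip A and 68, 56 and 80 on chip B.

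**Figure D1:**
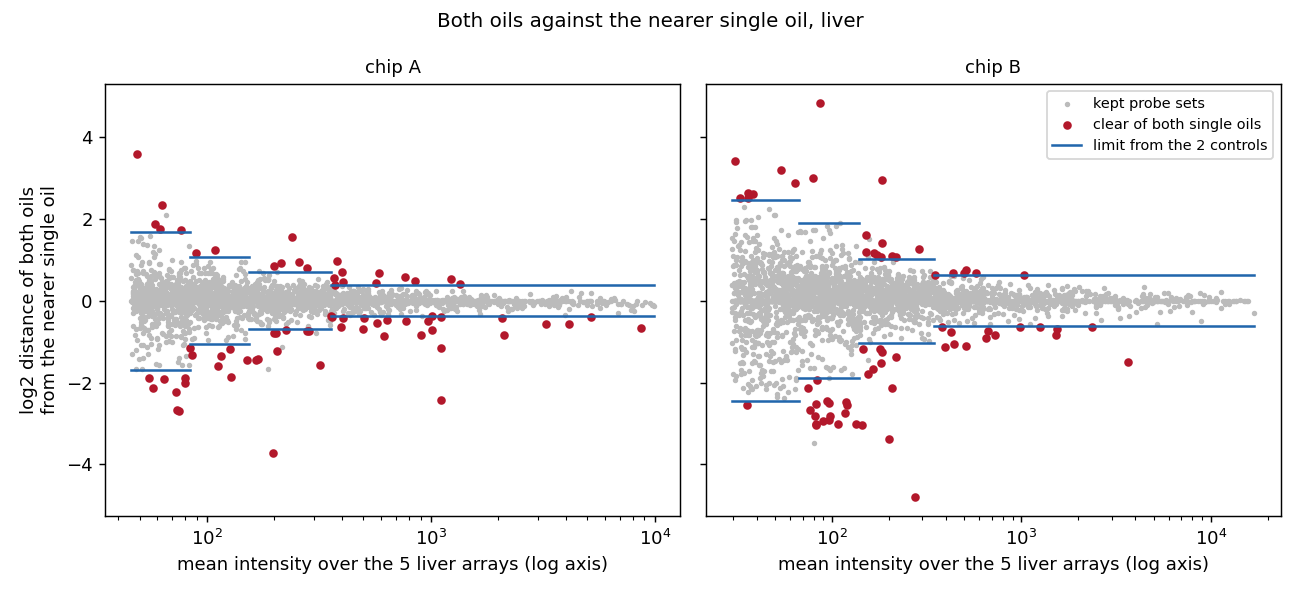
Each point is a probe set kept on chip A (left) or chip B (right). The horizontal axis is the mean intensity over the 5 liver arrays on a log axis, and the vertical axis is the log2 distance of both oils from the nearer single oil, with 0 for values in between. Blue lines mark the limit from the 2 controls in each brightness class and red points the 139 probe sets clear of both single oils, 48 above and 91 below.

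A limma fit of the 4 diet groups called no probe set at an adjusted p under 0.05 (Benjamini-Hochberg over both chips) for both oils minus fungal oil (0%), both oils minus fish oil (0%), both oils minus the mean of the single oils (0%) or the interaction of the oils (0%). The lowest adjusted p-values of limma in these 4 contrasts were 0.619, 0.51, 0.407 and 0.53. At an unadjusted p under 0.05 limma gave 524, 581, 557 and 607 probe sets, where 327 would be expected by chance. The fit has 1 residual degree of freedom, from the 2 controls, and takes each oil RNA to vary as they do. No gene below passed this test unless stated, and the values are those of single RNAs.

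When the filter was raised to the 75th percentile of each chip, which left 3269 probe sets, limma called 2 for both oils minus fungal oil (0.0612%), 24 for both oils minus fish oil (0.734%), 5 for both oils minus the mean of the single oils (0.153%) and 1 for the interaction (0.0306%). The 4 named genes among the 5 that differed from the mean of the single oils were Apoa4 (log2 -2.58, limma adjusted p = 0.00744), Fasn (-1.79, limma adjusted p = 0.0183), Mrpl23 (-3.97, limma adjusted p = 0.0183) and Scd1 (-0.72, limma adjusted p = 0.0248). All 4 were lower with both oils. With the filter at the median their limma adjusted p-values were 0.407 to 0.577. Apoa4 and Mrpl23 also passed at that filter with centred arrays (limma adjusted p = 0.0139 and 0.0174) and with the single oils as 1 group (0.0263 for each), and Fasn and Scd1 did not.

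With 1 probe set per gene, the brightest, 3515 genes had a name. Both oils lay above both single oils for 1260 of them (35.8%) and below both for 1000 (28.4%), and were clear above for 25 (0.711%) and clear below for 51 (1.45%). With centred arrays these shares were 29.8% above and 36% below, so the background for each list below turns with the scaling. For 317 genes outside both single oils with further probe sets, 146 of 354 other probe sets (41.2%) lay on the same side and 82 (23.2%) on the opposite side, which measures how often the side of a gene repeats within the same RNAs.

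Genes of fatty acid synthesis lay lowest with both oils. In each list the genes counted as measured are those that passed the brightness filter, here 10 of 23. Of these 10, 9 were below both single oils and 0 above, against 28.4% and 35.8% of all genes, and 5 were clear below. With centred arrays 5 were clear and 10 of 10 counted as below, including Pgd, whose lowest values lie under the floor. Their median for both oils minus the mean of the single oils was -0.67 (log2), against 0.04 over all genes. Fasn, fatty acid synthase, which builds palmitate, read 966 with both oils, 2715 with fungal oil, 4104 with fish oil and 5522 and 4906 in the controls. The both-oils value lay 2.81-fold below the nearer single oil, and the fungal-oil and fish-oil values lay below both controls. Against the control mean Fasn differed by -2.43 (log2) with both oils, -0.94 with fungal oil and -0.34 with fish oil, so that both oils lay 1.15 below the sum of the single-oil differences (limma interaction -1.15, SE 0.21, adjusted p = 0.53).

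Acly, which makes cytosolic acetyl-CoA from citrate, read 878 with both oils, 1568 with fungal oil, 1754 with fish oil and 3118 and 3275 in the controls. Here the difference from the controls with both oils, -1.86, lay close to the sum of -1.03 with fungal oil and -0.87 with fish oil, and the interaction was 0.03 (SE 0.12). Scd1, the stearoyl-CoA desaturase and the brightest gene of the list, read 5541 with both oils, 8749 with fungal oil, 9493 with fish oil and 9754 and 9811 in the controls. Its single-oil values differed from the control mean by -0.16 (log2) with fungal oil and -0.04 with fish oil, and both oils lay 0.66 below the nearer of them, or 0.47 after quantile normalization.

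Thrsp, a regulator of lipogenesis known as Spot 14, read 1505 with both oils, 2947 with fungal oil, 2353 with fish oil and 2444 and 2518 in the controls, so that fungal oil was above the controls and both oils below. Me1, the malic enzyme that supplies NADPH, read 346 with both oils, 465 with fungal oil, 605 with fish oil and 593 and 501 in the controls. The mitochondrial citrate carrier Slc25a1 (1887 with both oils, 2245 and 2262 with the single oils) and the pentose phosphate enzymes Tkt (347, against 409 and 453) and Taldo1 (287, against 416 and 308) were below both single oils but not clear of them. Elovl6, which lengthens palmitate, did not separate from fungal oil: it read 274 with both oils, 284 with fungal oil, 431 with fish oil and 618 and 714 in the controls. The phosphogluconate dehydrogenase Pgd read 4 with both oils, 60 with fungal oil, 5 with fish oil and 139 and 135 in the controls. Both oils and fish oil lie under the floor there and have no order.

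**Figure D2:**
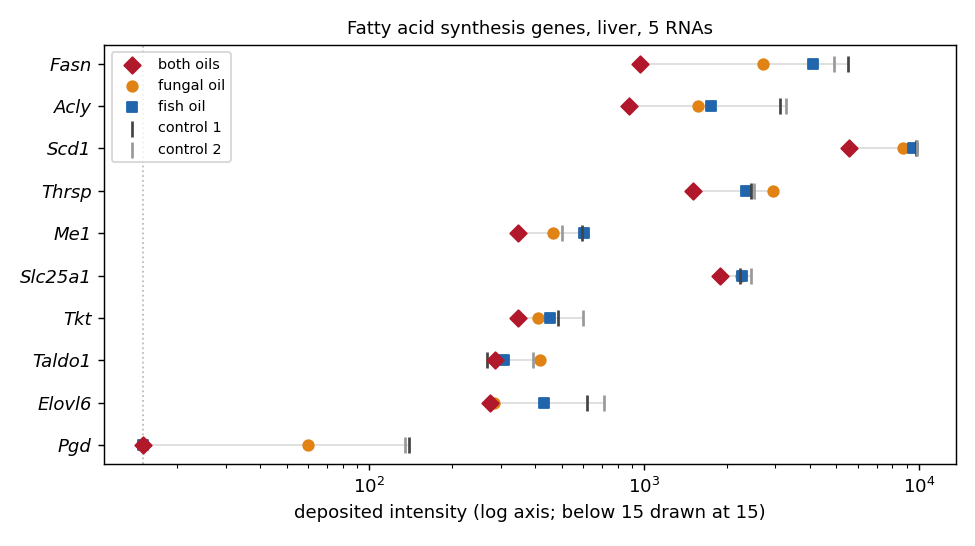
Deposited intensity on a log axis for the 10 measured genes of fatty acid synthesis, with 1 point for each of the 5 liver RNAs and values below 15 drawn at 15. Both oils (red diamonds) lie left of both single oils for every gene but Pgd, by 2.81-fold for Fasn and by 0.05 on the log2 scale for Elovl6.

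The bases upstream of Fasn are shown because it has the largest clear gap among the very bright lipogenic genes. They come from the RefSeq promoter table on build GRCm38.p6, a reference strain and not these NMRI mice, and capitals mark every match, on either strand, to 5 motifs: the NF-Y box CCAAT, the E-box CACGTG, the sterol element TCACNCCAC, the nuclear receptor element AGGTCA and the D-box TTATGNAA. The region is chr11:120824548-120824797, minus strand, the 250 bases before the start of the transcript. It holds CCAAT at 3 places, of which the pair nearest the start overlaps (62 to 58 and 59 to 55 bases upstream), and no match to the other motifs.
Fasn: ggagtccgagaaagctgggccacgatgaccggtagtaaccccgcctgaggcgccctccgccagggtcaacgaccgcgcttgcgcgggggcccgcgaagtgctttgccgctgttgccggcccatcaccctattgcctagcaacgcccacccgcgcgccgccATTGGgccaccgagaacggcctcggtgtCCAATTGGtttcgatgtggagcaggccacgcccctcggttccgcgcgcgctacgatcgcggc
Of 32841 promoters of that length in the table, 33.9% hold CCAAT on either strand, 6.02% CACGTG, 1.05% TCACNCCAC, 14% AGGTCA and 3.07% TTATGNAA, so the letters alone do not set Fasn apart.

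Among glycerolipid genes 4 of 8 were below both single oils, 2 above and 0 clear. Gpam, which starts triglyceride assembly, fell just short of the clear rule with 526 with both oils, 683 with fungal oil, 989 with fish oil and 1140 and 1228 in the controls. Its gap was -0.38, and those of Mbl2 and Snd1, which just met the rule, round to the same value. The lipid droplet protein Plin2 read 2161 with both oils, 2454 with fungal oil, 2997 with fish oil and 2522 and 2606 in the controls.

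Apoa4, an apolipoprotein of chylomicrons and of triglyceride-rich particles from the liver, had the lowest limma p of the fit. It read 117 with both oils, 781 with fungal oil, 629 with fish oil and 1987 and 2034 in the controls. Both oils lay 5.38-fold below the nearer single oil, and both single oils lay below both controls. The difference from the control mean was -4.10 with both oils, -1.36 with fungal oil and -1.68 with fish oil, with an interaction of -1.06 (SE 0.15, limma adjusted p = 0.53). Its probe set carries probes shared within a gene family, so related transcripts may contribute. The 250 bases upstream of Apoa4 (GRCm38.p6, chr9:46240594-46240843, plus strand) hold none of the 5 motifs, and are printed as a contrast to Fasn in lower case throughout.
Apoa4: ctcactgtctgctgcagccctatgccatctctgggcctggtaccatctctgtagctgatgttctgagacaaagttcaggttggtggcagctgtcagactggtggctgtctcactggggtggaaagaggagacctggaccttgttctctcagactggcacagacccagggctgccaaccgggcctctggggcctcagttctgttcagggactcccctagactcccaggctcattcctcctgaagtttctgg

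The lipoprotein list as a whole had no common side. Of its 16 measured genes 4 were below both single oils, 3 above and 9 between them, and the median for both oils minus the mean of the single oils was -0.07. With centred arrays 9 lay below and 2 above, with a median of -0.15. Apoa2, of high-density lipoprotein, read 15581 with both oils, 15353 with fungal oil and 17937 with fish oil. Apoe, which directs remnant particles to the liver, differed between its probe sets, both shared in a gene family. On chip B Apoe read 10493 with both oils, 10703 with fungal oil, 12074 with fish oil and 10404 and 9734 in the controls. On chip A Apoe read 5253, 6438, 9632 and 6040 and 6809 in that order, and at the stricter filter limma called it for both oils minus fish oil (-0.87, adjusted p = 0.0428). Several of the brightest chip A probe sets, among them Gstp1, Cyp2e1, Ahsg and Fabp1, also read highest with fish oil. Gstp1 read 8592 with both oils, 8944 with fungal oil, 12575 with fish oil and 8730 and 8844 in the controls. The part of this shared reading in the Apoe difference was not tested. Pltp, the phospholipid transfer protein, had the order of Apoa4 at dim values, without being clear: it read 16 with both oils, against 47 with fungal oil, 56 with fish oil and 86 and 92 in the controls. Angptl4, a secreted inhibitor of lipoprotein lipase and a PPAR target, was highest with both oils at 307, against 191 with fungal oil, 184 with fish oil and 75 and 133 in the controls, without being clear. Apom, which carries sphingosine phosphate on high-density lipoprotein, went the other way from Apoa4. It read 1444 with both oils, 964 with fungal oil, 1003 with fish oil and 1415 and 1348 in the controls, so that the single oils were low and both oils lay 0.06 (log2) above the control mean.

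Among the 9 measured genes of fatty acid binding and uptake 7 were below both single oils and 1 above, with a median of -0.19 that turned to 0.01 under quantile normalization. Fabp5, a fatty acid carrier, read 238 with both oils, 593 with fungal oil, 384 with fish oil and 3334 and 3137 in the controls. Most of that difference was already present with either oil alone, at -2.45 and -3.07 from the control mean against -3.76 with both oils. Its probe set is also shared within a gene family. Cd36, a fatty acid receptor, was high with fish oil alone: it read 170 with both oils, 223 with fungal oil, 591 with fish oil and 280 and 213 in the controls. The very abundant Fabp1, from a probe set shared in its family, read 7951 with both oils, 7657 with fungal oil, 10333 with fish oil and 7849 and 7694 in the controls.

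Genes for the oxidation of fatty acids and other PPAR-alpha targets had no common side. Of 22 measured, 5 were above both single oils, 6 below and 11 between them, and the median was -0.01. Cyp4a31, an omega-hydroxylase of fatty acids, was clear above: it read 405 with both oils, 214 with fungal oil, 193 with fish oil and 132 and 129 in the controls, with probes shared in its family. Its relatives did not do the same. Cyp4a10 read 1010 with both oils, between 894 with fungal oil and 1566 with fish oil, and 321 and 349 in the controls. Cyp4a14 read 51 with both oils, 160 with fungal oil and 385 with fish oil, with both controls under the floor. The carnitine shuttle genes lay between the single oils, Cpt1a at 1272 (1285 with fungal oil and 1058 with fish oil) and Cpt2 at 690 (673 and 791), and above their controls of 604 and 864 and of 408 and 428. Etfb, a subunit of the flavoprotein that takes electrons from acyl-CoA dehydrogenases, was clear below with 646 with both oils, 1178 with fungal oil, 1065 with fish oil and 1073 and 1081 in the controls.

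G6pc, glucose-6-phosphatase, which releases glucose from the liver, was highest with fish oil alone and lowest with both oils. It read 553 with both oils, 1224 with fungal oil, 1669 with fish oil and 969 and 1160 in the controls. Fungal oil lay 0.21 (log2) above the control mean, within the control difference of 0.26, and fish oil 0.65 above it. The interaction was -1.80 (SE 0.23, limma adjusted p = 0.53). Its upstream 250 bases (GRCm38.p6, chr11:101367466-101367715, plus strand) hold CCAAT on either strand at 214 to 210 and 204 to 200 bases and AGGTCA on the reverse strand at 54 to 49 bases before the start.
G6pc: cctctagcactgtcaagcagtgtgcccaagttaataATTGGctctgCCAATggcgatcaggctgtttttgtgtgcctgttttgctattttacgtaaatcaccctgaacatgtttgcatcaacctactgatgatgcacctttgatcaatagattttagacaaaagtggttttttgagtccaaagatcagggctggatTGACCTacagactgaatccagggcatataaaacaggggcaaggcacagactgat
The list of gluconeogenesis and the fasting response had no common side. Of 14 measured genes 6 were above both single oils, 5 below and 3 between, with a median of 0.02. Cebpb, a transcription factor of the fasting response, read 729 with both oils, 1071 with fungal oil, 1021 with fish oil and 793 and 608 in the controls. Pfkfb3, which makes the activator of glycolysis, read 89, against 171 with fungal oil, 164 with fish oil and 110 and 90 in the controls. Fbp1, fructose bisphosphatase, read 2171 with both oils, between 2310 with fungal oil and 2072 with fish oil.

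The amino acid stress factors Atf5 and Atf4 were both clear below. Atf5 read 281 with both oils, 505 with fungal oil, 563 with fish oil and 875 and 864 in the controls. Atf4, which switches on amino acid synthesis and transport, read 647, 910, 1045 and 1115 and 1129 in the same order. Their list of unfolded protein response and chaperone genes was mixed, with 7 of 23 above both single oils, 8 below and a median of -0.01. Herpud1, of protein degradation at the endoplasmic reticulum, read 1902 with both oils, 1626 with fungal oil, 1398 with fish oil and 991 and 1076 in the controls. Hspa5, the main chaperone of that compartment, read 1820, 1996, 3014 and 2989 and 2614. Got1, the cytosolic aspartate aminotransferase, was clear below among 22 genes of amino acid breakdown (467 with both oils, 798 with fungal oil, 656 with fish oil, 1051 and 900 in the controls), of which 13 lay below and 4 above. Sardh, which breaks down sarcosine, was clear above with 1744 with both oils, 1301 with fungal oil, 1321 with fish oil and 1166 and 1237 in the controls.

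**Figure D3:**
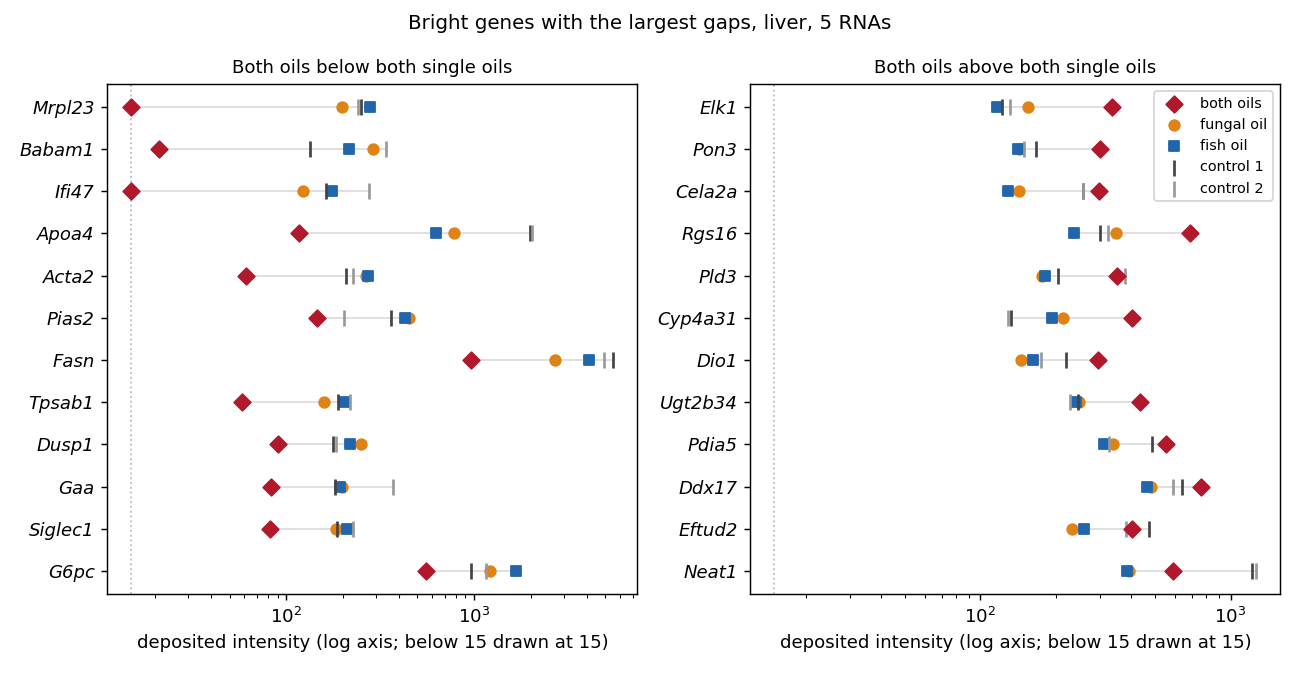
Deposited intensity on a log axis for the 12 bright genes with the largest clear gaps below both single oils (left) and above both (right), with 1 point for each of the 5 liver RNAs and values below 15 drawn at 15. Both oils (red diamonds) lie outside both single oils by construction. For Fasn and Apoa4 the single oils lie between both oils and the controls, and for Neat1 both oils lie between the single oils and the controls.

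On the high side, both oils seldom lay farther from the controls in a direction that both single oils shared. Of the 48 probe sets clear above, 3 had both single oils above the control mean and both oils farther out. In 39 both single oils lay below the control mean with both oils nearer to it or past it (36 past it), and in 6 the single oils lay on opposite sides. Among all probe sets above both single oils those shares were 23%, 47.8% and 29.1%. The 91 probe sets clear below split into 24, 42 and 25, where all probe sets below gave 20.7%, 50.1% and 29.3%. Since the single-oil values enter both the gap and this placing, the counts only describe where the controls lay.

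Rgs16, a brake on G protein signalling, had the largest clear gap above among named genes of the brightest class. It read 688 with both oils, 350 with fungal oil, 236 with fish oil and 300 and 324 in the controls. Without the both-oils array the mean of Rgs16 was 302.5, under the 358.4 from which that class starts on chip A. Its place in the class, and the choice of its upstream bases, thus rest on the value described. The limit in the next dimmer class was 0.70, which its gap of 0.98 also exceeded. A second probe set of Rgs16, on chip B, also lay above both single oils, by 0.59 against 0.98. The 250 bases upstream of Rgs16 (GRCm38.p6, chr1:153740103-153740352, plus strand) hold CCAAT on the reverse strand at 68 to 64 bases before the start and no other of the motifs.
Rgs16: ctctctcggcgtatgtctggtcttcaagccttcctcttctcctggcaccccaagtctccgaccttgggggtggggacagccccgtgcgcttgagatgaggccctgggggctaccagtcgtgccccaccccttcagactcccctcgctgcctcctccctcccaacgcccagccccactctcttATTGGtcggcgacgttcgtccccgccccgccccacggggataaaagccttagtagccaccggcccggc
The upstream bases of Pdia5 (chr16:35490874-35491123, minus strand) and Ddx17 (chr15:79546742-79546991, minus strand), next in gap in this class, hold none of the motifs.

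Elk1, a transcription factor of growth signalling, read 336 with both oils, 155 with fungal oil, 116 with fish oil and 122 and 131 in the controls. Without the both-oils array the mean of Elk1 was 131, under the 139.2 from which probe sets of chip B count as bright, so its class and the limit of 1.03 rest on the value described. In the next dimmer class the limit was 1.90, above its gap of 1.12. The mean fell under the bright threshold in this way for 4 of the 90 bright clear probe sets, and Elk1 was the named gene among them. The brightest class, from 358.4 on chip A and 347.2 on chip B, depends on that array too. Without it the means of Eftud2 (337), Cope (334) and Edem2 (358) lay under this class. Their gaps were 0.64, 0.55 and 0.38. The next dimmer class had limits of 1.03 on chip B, for Eftud2, and 0.70 on chip A, for Cope and Edem2. Pon3, a lactonase carried on high-density lipoprotein, read 302, against 143 with fungal oil, 141 with fish oil and 167 and 150 in the controls. The Pon3 gap of 1.08, against a limit of 1.03, was 0.94 after quantile normalization. Dio1, which activates thyroid hormone, read 294, against 145 and 162 with the single oils and 219 and 174 in the controls. Ugt2b34, a glucuronosyltransferase, read 435 with both oils, 248 with fungal oil, 242 with fish oil and 245 and 228 in the controls. For Elk1, Pon3, Dio1 and Ugt2b34 the both-oils value was the highest of the 5 RNAs, and the single oils lay near or below the controls.

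For Neat1, Ddx17, Eftud2 and Cela2a both single oils lay below both controls. Neat1, a nuclear noncoding RNA that builds paraspeckles, read 588 with both oils, 394 with fungal oil, 384 with fish oil and 1218 and 1269 in the controls, and thus stayed well below them. Ddx17, an RNA helicase, read 765, against 479 with fungal oil, 463 with fish oil and 641 and 587 in the controls. Eftud2, a GTPase of the spliceosome, read 405, against 233, 259 and controls of 474 and 382. Cela2a, a pancreatic elastase gene, read 298 with both oils, 143 with fungal oil, 129 with fish oil and 258 and 257 in the controls. Its gap of 1.06 just passed the limit of 1.03 and was 0.91 after quantile normalization. Cela2a was not clear under that normalization or with centred arrays. Pdia5, a protein disulfide isomerase, and the lysosomal Pld3 had controls that differed by 0.57 and 0.88 (log2), close to their gaps of 0.71 and 0.96. ET61191_g_at, a probe set without a gene name, read 584 with both oils, 61 with fungal oil, 75 with fish oil and 106 and 89 in the controls, and it too counts as bright only through the both-oils value.

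Several bright genes were near or under the floor with both oils alone. Mrpl23, of the mitochondrial ribosome, read 15 with both oils, 198 with fungal oil, 279 with fish oil and 251 and 241 in the controls, at least 13.2-fold below the nearer single oil. Ifi47, an interferon-induced GTPase, read -20 with both oils, 123 with fungal oil, 175 with fish oil and 164 and 277 in the controls, at least 8.18-fold below. The other interferon and antigen presentation genes did not follow Ifi47, with 8 of 22 above both single oils, 8 below and a median of 0.04. Babam1, of a DNA repair complex, read 21, against 289 and 217 with the single oils and controls of 134 and 341 that differed by 1.35 (log2). The unnamed ET62206_r_at read -26 with both oils, 415 with fungal oil, 611 with fish oil and 165 and 212 in the controls. Such drops at a single probe set have no second RNA behind them.

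Signalling genes clear below included Dusp1, a phosphatase of MAP kinases that responds quickly to stress (91 with both oils, 249 with fungal oil, 218 with fish oil, 177 and 185 in the controls). Foxa3, a transcription factor of hepatocytes, read 207 with both oils, 501 with fungal oil, 454 with fish oil and 355 and 466 in the controls. In its list of nuclear receptors and liver transcription factors 11 of 17 were below both single oils and 4 above, with a median of -0.18. Most of these shifts were small, as for Ppara, at 1175 with both oils, 1626 with fungal oil, 1243 with fish oil and 1158 and 1325 in the controls. Pias2, a SUMO ligase (146, against 453 and 429), and the lysosomal glucosidase Gaa (83, against 199 and 193) had control differences of 0.82 and 1.03 (log2), beside gaps of -1.56 and -1.22. A second probe set of Pias2 had a smaller gap of -0.42.

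Markers of other liver cells were low in part. Acta2, the smooth muscle actin of stellate and vessel cells, read 61 with both oils, 267 with fungal oil, 274 with fish oil and 209 and 227 in the controls. Its list of 11 stellate and connective tissue genes did not follow, with 5 below, 4 above and a summed intensity of 7197 with both oils, 7369 with fungal oil, 6896 with fish oil and 7012 and 6744 in the controls over the 14 members on the chips. The mast cell tryptase Tpsab1 read 58, against 159 and 203 with the single oils and 189 and 218 in the controls. Siglec1, a sialic acid receptor of macrophages, read 82, against 185 and 211 with the single oils and 186 and 227 in the controls.

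In the macrophage and Kupffer cell list 6 of 10 were above both single oils and 1 below, against 35.8% and 28.4% of all genes, with 0 clear and a median of 0.37. Over its 13 members on the chips the summed intensity was 1778 with both oils, 1557 with fungal oil, 1753 with fish oil and 2404 and 2220 in the controls. The Kupffer cell gene Cd5l read 214 with both oils, 147 with fungal oil, 127 with fish oil and 224 and 228 in the controls. In the endothelial list Stab1, a scavenger receptor of liver sinusoids, read 100, against 63 and 62 with the single oils and 129 and 116 in the controls. The endothelial list had 2 of 6 above both single oils, 1 below and a median of 0.12, with sums of 1687 with both oils, 1557 with fungal oil, 1467 with fish oil and 2203 and 1941 in the controls. Hepatocyte genes had 1 of 9 above, 5 below and a median of -0.09, with sums of 61120, 61555, 71582 and 62755 and 55275 in that order. After quantile normalization 3 of 9 lay on each side. The sums with both oils, fungal oil and fish oil were then 64082, 63185.6 and 62784.9. Lymphocyte genes had 1 of 7 above and 3 below (median -0.03), bile duct genes 2 of 3 above and 1 below (0.11) and adipocyte genes 0 of 3 on either side (0.41). The pancreas and gut list had 3 of 6 above and 2 below, with Cela2a clear above and Apoa4 clear below. With centred arrays or after quantile normalization Cela2a was not clear. The part of cell content in the results was not tested. In these bulk samples fewer cells of a type and less RNA per cell cannot be told apart.

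Globin transcripts, which come from blood left in the tissue, read lowest with both oils at the brightest probe sets. The dim globin gene Hba-x was clear above instead. It read 149 with both oils, 66 with fungal oil, 58 with fish oil and 93 and 79 in the controls. Its mean of 89 includes the both-oils value and lay just above 83.8, where its brightness class begins. The limit was 1.06 in that class and 1.69 in the dimmer one, with a gap of 1.17 for Hba-x. Its clear status thus rests on the both-oils value itself. Hba-a1 read 6258 with both oils, 8868 with fungal oil, 11494 with fish oil and 9689 and 8267 in the controls, and Hbb-b2 read 1530, 2138, 3895 and 3088 and 2469, both from probe sets shared within the globin family and neither clear. With centred arrays Hba-a1 and Hbb-b2 were both clear below. Of the probe sets assigned jointly to both alpha-globin genes, C79775_rc_f_at read 3761 with both oils, 4969 with fungal oil, 7377 with fish oil and 4937 and 4931 in the controls, and C77409_rc_f_at read 2772, 4154, 5074 and 4366 and 4435. Both were clear below, with gaps of -0.40 and -0.58, and limma called both for both oils minus fish oil at the stricter filter (adjusted p = 0.0247 and 0.0321). Other very bright chip A probe sets also read highest with fish oil, and the part of that in these 2 calls was not tested. The erythroid gene Alas2 read 664 with both oils, 549 with fungal oil, 612 with fish oil and 1081 and 990 in the controls, and the red blood cell list had 1 of 5 above both single oils, 2 below and a median of 0.07. Its summed intensity over 6 members was 8796 with both oils, 11812 with fungal oil, 16246 with fish oil and 14117 and 12008 in the controls. The part of blood content in the results was not tested. In the list of haem synthesis and handling 6 of 10 were below both single oils and 3 above. Hpx, the plasma protein that binds haem, was clear below with 2241 with both oils, 3967 with fungal oil, 3335 with fish oil and 3048 and 3815 in the controls. Alas1, which limits haem synthesis in liver, lay between the single oils with 3355 with both oils, 4573 with fungal oil, 2265 with fish oil and 1299 and 1177 in the controls.

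The remaining pathway lists gave few clear genes, beside 35.8% of all genes above both single oils and 28.4% below. Of 15 cytochromes P450 of families 1 to 3, 3 were above both single oils, 7 below and 0 clear, with a median of -0.01. Cyp2e1, among the brightest, read 8671 with both oils, 9438 with fungal oil, 13101 with fish oil and 9172 and 9171 in the controls, and Cyp3a11 read 6542, 7297, 8429 and 4935 and 4618. The Cyp2e1 gap of -0.12 became 0 after quantile normalization. Of 15 conjugating enzymes 4 were above and 5 below (median -0.07), and of 20 antioxidant genes 5 and 10 (-0.06). Acute phase and complement genes had 12 of 26 above both single oils, 6 below and a median of 0.09, with Hpx and Mbl2 clear below. With centred arrays 6 of these 26 lay above and 9 below. Cholesterol synthesis genes had 3 of 6 above and 2 below (0.08), bile acid genes 4 of 8 above and 2 below (0.12), and eicosanoid enzymes 1 of 7 above and 3 below (-0.11). Plasma proteins had 10 of 26 on each side (-0.03), ribosomal proteins 8 of 37 above and 13 below (-0.02), respiratory chain genes 6 of 41 and 17 (-0.03), proteasome genes 10 of 30 and 7 (0.05) and cell cycle genes 4 of 19 on each side (0.06), all without a clear gene. The sides of such lists turn with the scaling. Plasma proteins had 6 above and 13 below with centred arrays, and 13 and 5 after quantile normalization. Respiratory chain genes had 4 and 26, and 9 and 9, in the same order.

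**Figure D4:**
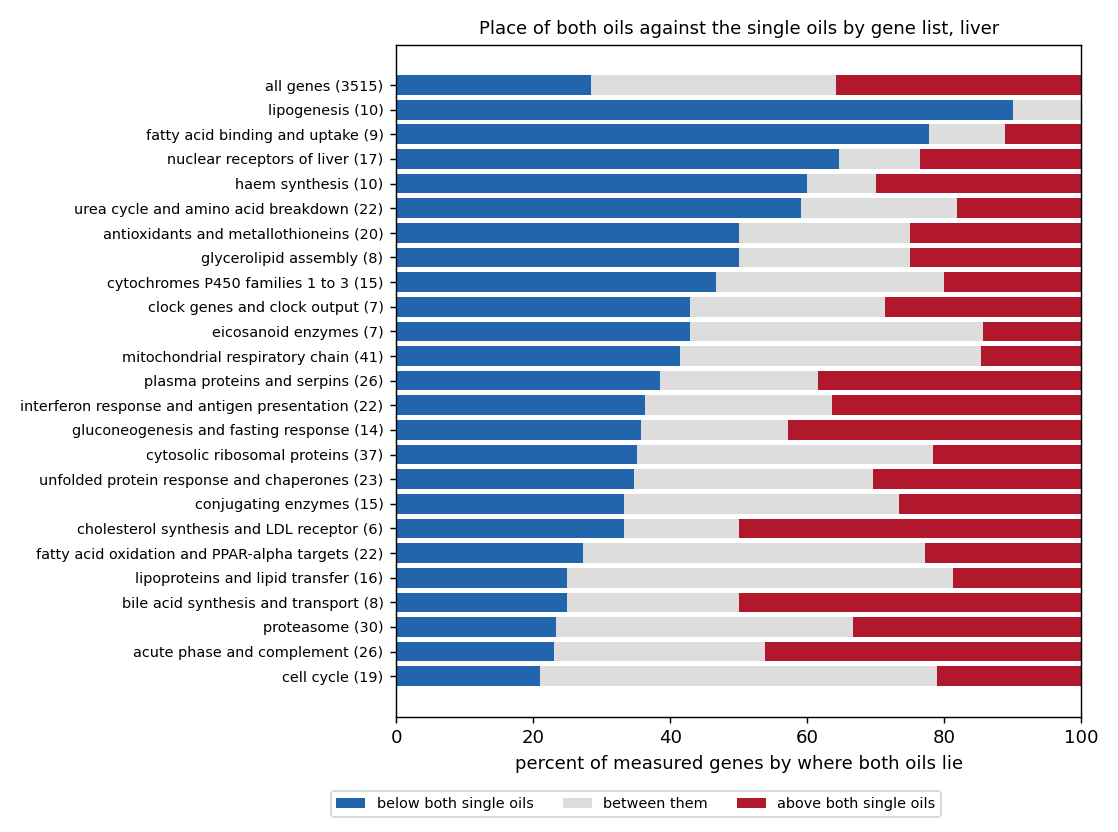
Share of the measured genes of each pathway list, with their number in parentheses, for which both oils lay below both single oils (blue), between them (grey) or above both (red). Lipogenesis has 9 of 10 genes below, against 28.4% of all 3515 genes. The lists were chosen with earlier results of these data known.

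For some genes the single oils differed from the controls in the same direction, and the combined diet was placed against that. By the same limits, taken from the controls, both single oils lay above both controls for 19 genes (0.541%) and below both for 27 (0.768%). Both oils were past the limit on the same side for 12 of the 19 and 18 of the 27. They lay farther out than either oil for 4 of the 19 and 9 of the 27, between them for 6 and 3, and nearer the controls for 9 and 15. Of the 9 farther out among the lower genes 5 were clear, namely Acly, Apoa4, Atf5, Fabp5 and Aqp8, an aquaporin that read 219 with both oils, 352 with fungal oil, 364 with fish oil and 741 and 815 in the controls. Of the 15 nearer the controls 5 were clear too, namely Apom, Neat1, Adam15, Six2 and Sema7a. Adam15 was kept by the filter only through its both-oils value. Of the 9 higher genes nearer the controls 3 were clear, namely Errfi1, Txn2 and Pepd, a dipeptidase that read 161 with both oils, 299 with fungal oil, 278 with fish oil and 134 and 122 in the controls. Cyp7b1, a hydroxylase of the alternative bile acid pathway, was among the higher ones with 1217 with both oils, 1097 with fungal oil, 1063 with fish oil and 783 and 793 in the controls.

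Where the single oils differed, the combined diet was read against each. Fungal oil lay above fish oil past the limit for 141 genes (4.01%) and below it for 140 (3.98%). Both oils were nearer to fungal oil for 100 of the 141 and 58 of the 140, so in either direction they were more often nearer to the higher oil. Among bright genes they were nearer to fungal oil for 61 of 88 where it was higher. Where fish oil was higher, 52 of 98 bright genes were nearer to it and 46 to fungal oil, close to even. Both oils read high in this scaling, and the part of scaling in these counts was not tested. They lay between the single oils for 178 of the 281. The clock output gene Dbp was among those nearer to fungal oil: it read 747 with both oils, 581 with fungal oil, 174 with fish oil and 176 and 162 in the controls. Upp2, a uridine phosphorylase with a daily rhythm, read 1779, 2044, 687 and 806 and 812 in that order. Among the 7 clock genes 2 were above both single oils and 3 below, with a median of 0.10, or -0.06 on chip A alone. Elovl3, an elongase of very long fatty acids with a daily rhythm in liver, was nearer to fungal oil too, at 317 against 421 with fungal oil, 983 with fish oil and 513 and 520 in the controls. Lypd8, a surface protein known from the gut, read 292 with both oils, 346 with fungal oil, 69 with fish oil and 373 and 335 in the controls. Lgals3, the galectin of macrophages and other cells, was nearer to fish oil, at 270 with both oils, 49 with fungal oil, 285 with fish oil and 215 and 196 in the controls. At the stricter filter limma called Dbp (2.10, adjusted p = 0.0247), Upp2 (1.37, adjusted p = 0.0294), Lypd8 (2.08, adjusted p = 0.0294) and Elovl3 (-1.63, adjusted p = 0.0357) for both oils minus fish oil, beside G6pc (-1.59, adjusted p = 0.0357) and Rgs16 (1.54, adjusted p = 0.0356). These genes were named after their values were seen.

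The dimmer genes between the median and the 75th percentile had wider gaps and wider limits. Adam15, a membrane protease, read 180 with both oils, 151 and 182 in the controls and negative values with either oil alone, a gap of at least 12-fold. Ctnnbip1, an inhibitor of beta-catenin, read 139 with both oils, 19 with fungal oil, 4 with fish oil and 69 and 86 in the controls. Six2 and Aatk lay above as well, and Hbs1l, Matk, Mllt1 and Chmp7 were under the floor with both oils and between 96 and 148 with the single oils. The controls of some of these genes differed widely. They read 21 and 128 for Hbs1l, 125 and 26 for Chmp7 and 48 and 126 for Aatk. Those control differences were 2.61, 2.27 and 1.39 (log2). Of all 139 clear probe sets 36 had an oil value at the floor. In 28 of them it was the both-oils value or both single oils, and only these folds are bounds. Ighmbp2, which just missed the rule at a gap of -1.89, read 24 with both oils, 89 with fungal oil, 138 with fish oil and 126 and 107 in the controls.

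The hippocampus of the same diets was measured on chip B, with 1 RNA per diet. Of the 68 probe sets clear in liver on that chip, 56 were at or above the hippocampus median. In the hippocampus both oils lay above both single oils for 27.1% of all such probe sets and below both for 40.4%. Of the 21 clear above in liver 1 was above and 10 below in hippocampus, and of the 35 clear below in liver 8 were below and 19 above. The side in liver was thus repeated in hippocampus for 9 of 56 probe sets, and 29 lay on the opposite side. Among named genes Fasn, Dusp1, Thrsp and Matk lay below both single oils in hippocampus too, by -0.35, -0.36, -0.28 and -0.28 (log2). Fasn read 521 with both oils, 666 with fungal oil, 718 with fish oil and 645 in the control. Other named genes lay on the opposite side. Elk1 (-0.08), Cela2a (-0.07) and Eftud2 (-0.04), clear above in liver, lay below both single oils in hippocampus. Foxa3 (0.02), Babam1 (0.20) and Ifi47 (0.86), clear below in liver, lay above both. Ifi47 read 154 with both oils, 85 with fungal oil, 59 with fish oil and 63 in the control.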

How the data were processed

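Liver RNA was hybridised to Affymetrix Mu11K subA and subB arrays. For every array the authors deposited whole-number intensities, 1 for each probe set, some of them negative. No source used here gives the software behind them. Signal over background and the number of arrays limit the precision. Gene symbols come from the platform annotation (of 6537 probe sets kept, 4078 had 1 symbol, 140 several and 2319 none), and probe sets with several or none were not named. Intensities below 0.1 times the trimmed mean were set to that floor. log2 values were fitted per chip with limma 3.58.1 in R 4.3.3 (lmFit, eBayes with an intensity trend, prior degrees of freedom 2.17 and 2.05), with Benjamini-Hochberg adjustment over the p-values of the 2 chips combined. Standard errors are those of the fit. The procedure was tested on simulated data with known changes.

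Named genes were the 12 largest clear gaps each way at or above the 75th percentile, the 4 largest each way below it, the 2 genes nearest the rule on either side, and members of 24 pathway and 9 marker lists. Others were named after their values were seen. Members and lists were chosen with earlier results of these data known. Alternatives changed the normalization, floor, filter, chip and control.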

Additional observations from a re-analysis of the deposited data

Results flagged for a closer look

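For 4 genes, among those of the brightest class only, each oil lay on one side of the controls when fed alone, while adding it to the other oil went the opposite way, each time past the limit set by the controls. The limma interaction of the oils had an adjusted p of 0.53 for each of them and did not pass the test. Neat1 had an interaction of 2.27 (log2, SE 0.15). Both oils minus fungal oil was 0.58 for Neat1 while fish oil minus the nearer control was -1.67, and both oils minus fish oil was 0.61 while fungal oil minus the nearer control was -1.63. Apom had an interaction of 1.04 (SE 0.14), with 0.58 beside -0.43 and 0.53 beside -0.48 in the same order. Errfi1, an inhibitor of the EGF receptor, had -1.28 (SE 0.11), with 1949 with both oils, 2776 with fungal oil, 2601 with fish oil and 1534 and 1510 in the controls. Txn2, the mitochondrial thioredoxin, had -1.18 (SE 0.20), with 331 with both oils, 487 with fungal oil, 434 with fish oil and 294 and 271 in the controls. Outside that class Pepd had the same pattern, with -2.01 (SE 0.25). So did the dim genes Adam15 (7.05, SE 0.47), Sema7a (4.73, SE 0.47) and Six2 (4.39, SE 0.54), each with a single-oil value under the floor.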

How the results depend on the processing

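With each array centred on its median, limma called 1 probe set for both oils minus fungal oil, 2 for both oils minus fish oil and 2 for both oils minus the mean of the single oils (Apoa4 and Mrpl23), and 31 were clear above and 115 below. Centring also turned the balance of all probe sets to 2003 above and 2366 below. Taking the single oils as 1 group gave 3 calls. With no filter limma gave 580, 620, 832 and 821 calls in the 4 contrasts, of which 572, 610, 818 and 805 had both controls at the floor and thus no spread, and 134 were clear above. The filter at the 75th percentile gave 2, 24, 5 and 1 calls, 1180 probe sets above and 928 below both single oils, and 24 clear above. Chip A alone gave 1095 above and 920 below, with 23 and 48 clear, and chip B alone 1399 and 908, with 25 and 43 clear. Under quantile normalization 35 were clear above, all among the 48, and 101 below, of which 89 were among the 91. Quantile normalization turned the list median of fatty acid binding to 0.01, and chip A by itself gave -0.06 for clock genes, -0.10 for bile duct genes and -0.50 for pancreas and gut genes. No gene named here went to the opposite side of both single oils under median centring or quantile normalization. Clear status was less stable: Cela2a, for example, was not clear under either. A change of floor or of control cannot turn that side. Without 1 control the fit has no residual degree of freedom and the clear rule no yardstick, so these were not run. No paired analysis was possible because each oil diet has 1 RNA.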
